A study of Homo sapiens with 4 samples.

Results

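Chemokines and their receptors were read from 4 arrays of naive and arsenic trioxide (ATO) resistant NB4 cells. Members were all probes on the array whose printed gene name was CCL, CXCL or CCR followed by a number, CXCR, XCL or XCR followed by 1 digit, or CX3CL1 or CX3CR1. The rule used names only and no measured value. It found 56 of 30811 gene names on the array, measured by 74 of 41000 probes, of which 39 encode ligands and 17 encode receptors. Family members that the array prints under older names, such as IL8 for CXCL8, fall outside the rule and are given separately.

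NB4 is an established human acute promyelocytic leukemia cell line. The naive group was 2 flasks of parental NB4 cells without any treatment stated. The resistant group was 2 flasks of a clone derived in-house that is resistant to arsenic trioxide, named NB4-VM-AsR1 in the labels, while the methods write NB4-EV-AsR1, and both names were assumed to mean one clone. All cells grew in RPMI with FBS, and the resistant cells were kept without ATO for 1 week before RNA was taken. As the resistant line is a single clone, resistance and other properties of that clone cannot be told apart. One flask was hybridized per array in 1 color, all 4 arrays lay on 1 slide, and the methods describe the flasks as independent.

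Chemokines are small secreted proteins that direct the migration of leukocytes through G protein-coupled receptors. They are grouped as CC, CXC, XC and CX3C by the spacing of the cysteines near the amino terminus, and several ligands share a receptor. In bone marrow, CXCL12 made by stromal cells retains myeloid cells through CXCR4, and the inflammatory ligands are induced in part through NF-kappa-B.

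Levels are given as the log2 of the background-corrected signal minus the 75th percentile of the array, so that 0 is the signal of the probe at that percentile. A level is compared between samples for 1 probe and not between probes, since probes differ in how brightly they hybridize. Between 27922 and 28244 probes per array were well above background in the scanner's own test. Over all gene names tested, the median difference between the naive flasks was 0.387 and that between the resistant flasks was 0.176 on the log2 scale. For the chemokine and receptor genes tested the corresponding medians were 0.509 and 0.212 (n = 31 genes). The naive flasks thus lay farther apart than the resistant flasks, and values without a flask are given where leaving it out changed a call. With a naive flask left out, the naive line is a single flask assumed to vary like the resistant flasks, which alone give the spread, and 13.2% of all probes were called without naive flask 1 and 16.1% without naive flask 2. Calls gained in these fits are therefore a description of how far the naive flasks lay apart.

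The promyelocyte identity of the cells was checked first. Of 12 listed promyelocyte marker names, 11 were on the array. On both arrays of the line, 9 of them passed the scanner's test in naive and 10 in resistant cells. MPO, the myeloperoxidase of primary granules, was measured by the brightest probe of the list, at 5.96 and 6.20 in naive and 5.98 and 6.29 in resistant flasks. Its probe was saturated on all 4 arrays, so that it shows that the transcript was present and cannot show a change. Of the 10 promyelocyte markers tested 3 were called, beside 5.47% of all gene names. ANPEP was 3.55-fold lower and AZU1 2.24-fold higher in the resistant line. ELANE, detected on 1 naive array, was higher, a call lost with either resistant flask left out. It entered the test only through the resistant arrays, where it was high, so that it carries no weight in this count. Of 6 stromal markers COL1A1, COL1A2, COL3A1 and LUM were not well above background on any array. DCN was so on 1 array of each line, and PDGFRB on 1 naive and both resistant arrays, at -5.94 and -6.67 in naive and -5.52 and -5.49 in resistant flasks (limma adjusted p = 0.257).

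Of the 56 genes, 29 had a probe well above background on all 4 arrays and 24 had none on any array. The undetected ligands were CCL7, CCL8, CCL11, CCL13, CCL14, CCL16, CCL18, CCL22, CCL26, CCL28, CXCL1, CXCL6, CXCL9, CXCL13, CXCL14, CXCL17, XCL1 and XCL2. The undetected receptors were CCR4, CCR6, CCR8, CCR9, CXCR6 and CXCR7, the last now named ACKR3. Being not well above background is a limit of detection by these probes and does not show that the transcript was absent. A probe was tested when both arrays of a line, or of both lines, detected it in this way, and 37 probes of 31 genes met this. The remaining 25 genes were the 24 undetected ones and CXCL11, an interferon-induced ligand of CXCR3, seen on 1 naive array.

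The lines were compared with limma over all 28221 probes tested on the array. A probe was called when its Benjamini-Hochberg adjusted p over these probes was below 0.05 and its change at least 2-fold. Of the 31 genes tested, each given by its tested probe with the highest mean over the arrays, 6 (19.4%) were called, beside 5.47% of all gene names tested in the same way. CX3CR1, CXCR3 and CCL4 rose in the resistant line, beside a background of 2.49% of gene names called higher. CXCL10, CCL5 and CCL20 fell, beside 2.98% called lower. At the level of probes 7 of 37 were called, beside 5.27% of all probes, the additional one being a second probe of CXCL3. Of these 3 were higher, beside 2.3% of all probes, and 4 lower, beside 2.97%. CXCL10 and this CXCL3 probe entered the test only through the naive arrays, where they were high, so that their calls carry no weight in the count. After normexp background correction, and after Benjamini-Hochberg adjustment of the t-test named in the methods, 0 of the members and 0% of all probes were called. Under these settings 4 and 9 member probes had an unadjusted p below 0.05. The share of all probes at that p was not taken there, so nothing is read from these counts. In limma 13 of the 37 probes had an unadjusted p below 0.05, beside 19.1% of all probes. The median difference over the 31 genes was -0.12, and over all gene names it was -0.01. The flasks of the lines did not overlap for 18 of the 31 genes, beside 53.3% of all gene names, so that lack of overlap by itself was common on these arrays. By probe it was 21 of 37, beside 52.5%.

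**Figure D1:**
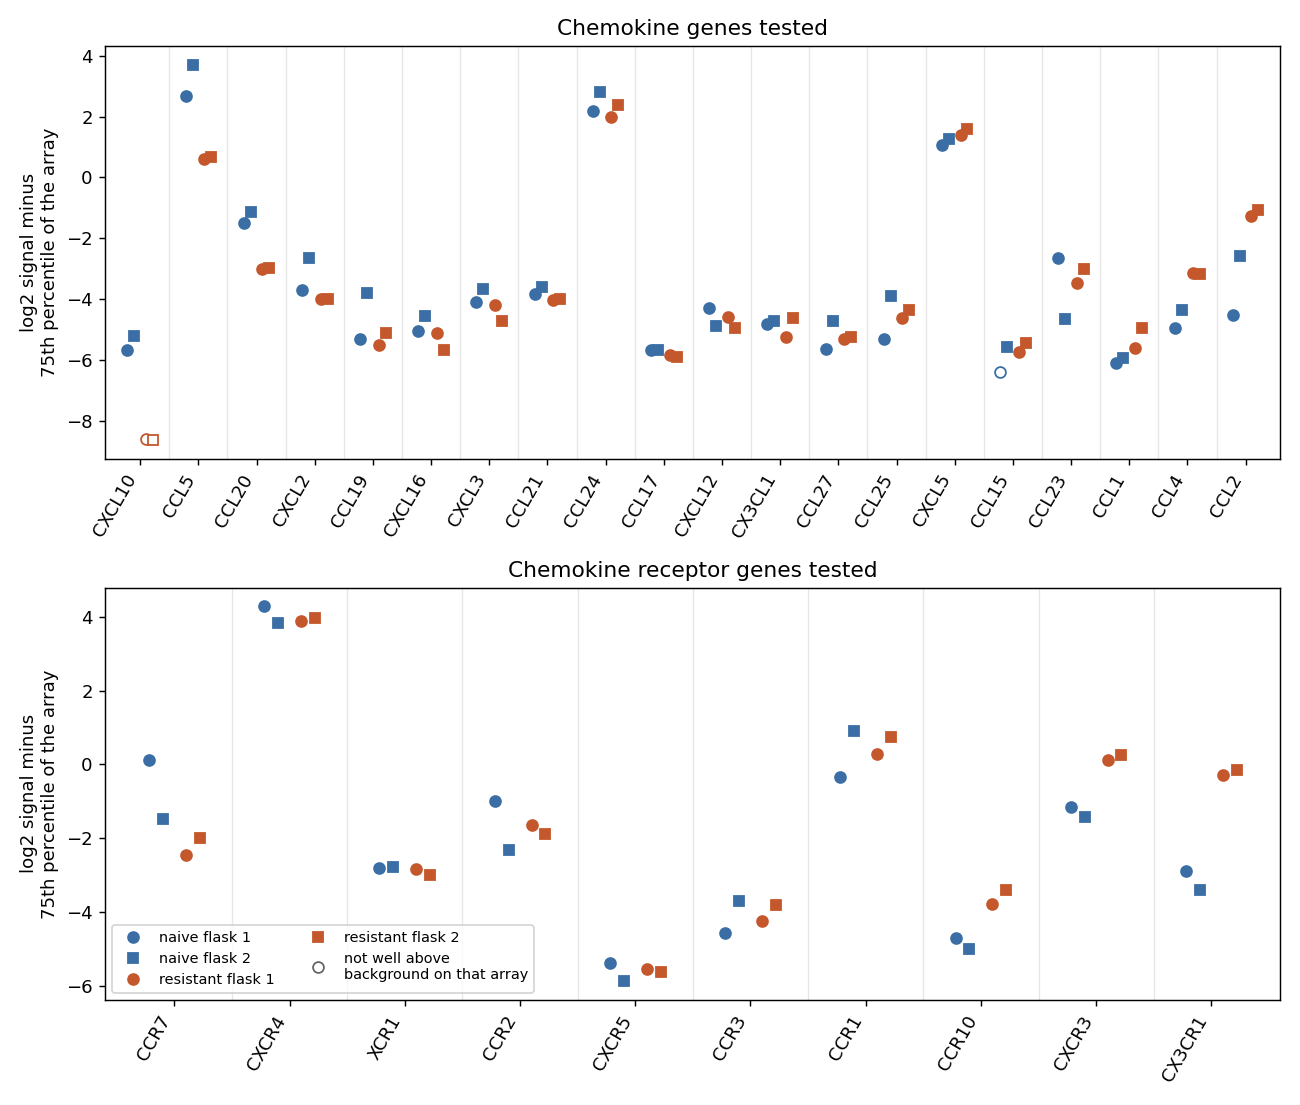
Level of each chemokine (upper panel) and receptor gene (lower panel) tested and reported, in log2 signal minus the 75th percentile of the array, with 1 point per flask and genes ordered by the difference between the lines. Open symbols mark arrays on which the probe was not well above background. CX3CR1 and CXCR3 lie higher in both resistant flasks, and CXCL10, CCL5 and CCL20 lie lower.

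Ligands are described first. Of 39 ligand genes 20 were tested. Of these 1 was called higher, beside 2.49% of all gene names, and 3 lower, beside 2.98%, one of the latter being CXCL10, and their median difference was -0.20. CXCL10, an interferon-induced ligand of CXCR3 that attracts activated T cells, had levels of -5.68 and -5.22 in the naive flasks and -8.62 and -8.63 in the resistant flasks. Both naive arrays detected it well above background and the resistant arrays did not, so that the resistant line has only an upper limit. Set against the dimmest signal detected on those arrays, CXCL10 was at least 2.03-fold lower in the resistant line, a limit that was not itself tested. The limma adjusted p of 0.0035 belongs to the fitted log2 difference of -3.17, which uses the undetected resistant values. The probe entered the test through the naive arrays alone. With normexp background correction the difference was 0.095, of the opposite sign, and with bright local backgrounds reset it was -0.26. CXCL10 was called in neither, so that its call depends on the setting. Both settings added an offset of 50 to the signal, and whether the correction or the offset narrowed the difference was not tested. The CXCL10 probe lies at chr4:76942934-76942993 on the minus strand of hg19.

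CCL5 (RANTES), a ligand of several CC receptors, among them CCR1 and CCR3, was at 2.67 and 3.71 in the naive flasks and at 0.59 and 0.69 in the resistant flasks. Both naive flasks lay above both resistant flasks, though the naive flasks were 1.05 apart. The log2 difference was -2.55 (SE 0.39, limma adjusted p = 0.026), a 5.85-fold lower mean in the resistant line. The probe lies at chr17:34199332-34199391 on the minus strand of hg19. After quantile normalization the adjusted p was 0.056, and with a resistant flask left out it was 0.101 without flask 1 and 0.088 without flask 2.

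CCL20, the ligand of CCR6, was at -1.49 and -1.13 in the naive flasks and at -3.0 and -2.97 in the resistant flasks. The resistant flasks differed by 0.024 and lay below both naive flasks. This gave a log2 difference of -1.67 (SE 0.24, limma adjusted p = 0.022), 3.19-fold lower in the resistant line, by a probe at chr2:228681777-228681836 on the plus strand of hg19. With either resistant flask left out the adjusted p was 0.200. Its receptor CCR6 was not well above background on any array.

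CCL4 (MIP-1-beta), an inflammatory CC ligand, was the ligand gene called higher. It was at -4.95 and -4.37 in the naive flasks and at -3.13 and -3.16 in the resistant flasks, without overlap. Its log2 difference was 1.51 (SE 0.28, limma adjusted p = 0.048), 2.86-fold higher, by a probe at chr17:34432718-34432777 on the plus strand of hg19. This p lay close to the threshold, with a resistant flask left out it was 0.306 without flask 1 and 0.311 without flask 2, and CCL4 was called in 10 of 20 alternative settings. It was not called with the replicate number as a block. CCL4 has near-identical copies in the genome, and whether their transcripts add to its signal was not tested. Thus the CC ligands CCL4 and CCL5, whose probes both lie on chromosome 17, were called in opposite directions.

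CCL2 (MCP-1), the monocyte attractant that binds CCR2, had the highest upward difference of any ligand and was not called. Its levels were -4.53 and -2.59 in the naive flasks and -1.27 and -1.07 in the resistant flasks. Both resistant flasks lay above both naive flasks, but the naive flasks were 1.94 apart. The log2 difference was 2.39 (SE 0.64, 95% interval 0.78 to 4.00, limma adjusted p = 0.125). CCL2 is measured by 10 spots of its probe on each array, whose SD on the log2 scale was 0.096 and 0.087 in the naive flasks and 0.055 and 0.082 in the resistant flasks. The gap between the naive flasks was therefore many times the spread between spots of 1 array. CCL2 was called in 5 of 20 alternative settings, and its difference ranged from 1.35 to 3.36 over them. Its difference was 1.42 without naive flask 1 and 3.36 without naive flask 2, and the calls it gained there leave out the naive gap.

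Of the member CXC ligands that act on neutrophils through CXCR1 and CXCR2, CXCL2, CXCL3 and CXCL5 were tested, while CXCL1 and CXCL6 were undetected. CXCL2 was at -3.70 and -2.64 in naive and -4.0 and -4.01 in resistant flasks, a log2 difference of -0.84 (SE 0.39, limma adjusted p = 0.330). Its second probe gave -0.93 (limma adjusted p = 0.253). CXCL5 was at 1.08 and 1.26 in naive and 1.39 and 1.60 in resistant flasks, a difference of 0.33 (SE 0.23, limma adjusted p = 0.496). Its other probe was at -7.00 and -5.79 in naive and -8.07 and -5.40 in resistant flasks. That probe was well above background on 1 array of each line and so was not tested. Neither gene passed the test.

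The probes of CXCL3 differed in their call, though the difference between them was not tested. Its brighter probe was at -4.10 and -3.66 in naive and -4.2 and -4.72 in resistant flasks, a log2 difference of -0.58 (SE 0.30, limma adjusted p = 0.367). Its second probe was at -5.95 and -5.43 in naive and -8.52 and -8.57 in resistant flasks, where it was not well above background. For this probe, which entered the test through the naive arrays alone, the resistant line was at least 1.72-fold lower. The limma adjusted p of 0.0053 belongs to the fitted values and not to this limit. After normexp with the offset of 50 the second probe differed by 0.16, of the opposite sign, and with bright local backgrounds reset by -0.20, without a call in either. The probe sequences show how close these genes are, since the brighter CXCL3 probe and the second CXCL2 probe share a run of 17 bases, the longest run between probes of different members, the next being 13. The run is in capitals in the following lines, and of the second CXCL3 probe only the first 30 bases are shown.
CXCL3 brighter probe: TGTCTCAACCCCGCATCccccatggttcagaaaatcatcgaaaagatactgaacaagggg
CXCL2 second probe: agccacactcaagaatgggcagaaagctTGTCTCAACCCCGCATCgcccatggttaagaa
CXCL3 second probe: gatgtgagtgtgtttcatcaaacatagctc
Whether transcripts of these paralogs hybridize to each other's probes was not tested, and the values of CXCL2 and CXCL3 are uncertain to that extent.

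The other ligands above background did not pass the test. CXCL12, the stromal ligand of CXCR4, was at -4.29 and -4.88 in naive and -4.60 and -4.96 in resistant flasks, a log2 difference of -0.20 with a 95% interval of -0.96 to 0.57. Its 10 spots had an SD of 0.104 and 0.102 on the first array of each line and 0.698 and 0.695 on the second, so that it was measured less well there. CCL23, a ligand of CCR1, was at -2.65 and -4.66 in naive and -3.47 and -3.02 in resistant flasks. The naive flasks enclosed the resistant ones, with a gap of 2.00. CCL24 (eotaxin-2), a ligand of CCR3, was at 2.18 and 2.82 in naive and 2.00 and 2.39 in resistant flasks, with overlap. CCL1, the ligand of CCR8, was at -6.11 and -5.93 in naive and -5.63 and -4.94 in resistant flasks, a difference of 0.73 (limma adjusted p = 0.283). The differences of CCL15, CCL17, CCL19, CCL21, CCL25, CCL27, CXCL16 and CX3CL1 lay between -0.75 and 0.39, and CCL15 was well above background on 1 of the naive arrays. Without naive flask 1, where the spread is that of the resistant flasks alone, CXCL2 (-1.37), CCL19 (-1.50) and CCL23 (1.42) were called, and without naive flask 2 they were not.

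Among the receptors 11 of 17 genes were tested, of which 2 were called, both higher, beside 2.49% of all gene names, with a median difference of 0.05. All of the 11 were well above background on all 4 arrays. CX3CR1, the fractalkine receptor of monocytes and cytotoxic lymphocytes, was at -2.89 and -3.38 in the naive flasks and at -0.28 and -0.16 in the resistant flasks. The gap between the lines was wide beside that within either line. The lines differed by 2.92 on the log2 scale (SE 0.27, limma adjusted p = 0.0049), 7.57-fold higher in the resistant line, by a probe at chr3:39305034-39305093 on the minus strand of hg19. It was called in 18 of 20 alternative settings, including each one that left out a flask. Its ligand CX3CL1 was at -4.84 and -4.72 in naive and -5.24 and -4.62 in resistant flasks, a log2 difference of -0.15 (limma adjusted p = 0.825).

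CXCR3, the receptor of CXCL9, CXCL10 and CXCL11, was at -1.14 and -1.42 in the naive flasks and at 0.12 and 0.26 in the resistant flasks. Both resistant flasks lay above both naive flasks. The log2 difference was 1.47 (SE 0.24, limma adjusted p = 0.031), 2.76-fold higher, by a probe at chrX:70835807-70835866 on the minus strand of hg19. With a resistant flask left out the adjusted p was 0.244 without flask 1 and 0.334 without flask 2. CXCR3 was called in 14 of 20 alternative settings, and was not called with the replicate number as a block. Of its ligands, CXCL10 was detected in the naive line alone and CXCL9 on no array.

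CXCR4, the receptor of CXCL12, had levels of 4.28 and 3.82 in the naive flasks and 3.88 and 3.96 in the resistant flasks. The resistant flasks lay within the range of the naive flasks. The log2 difference was -0.12 (SE 0.26, 95% interval -0.78 to 0.53, limma adjusted p = 0.839), and the interval does not reach a 2-fold change in either direction. The SD over its 10 spots was between 0.024 and 0.061 on the 4 arrays.

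CCR10, a receptor of CCL27 and CCL28, was at -4.69 and -4.99 in naive and at -3.76 and -3.39 in resistant flasks, without overlap. Its log2 difference of 1.26 (SE 0.26) had a limma adjusted p of 0.065. CCR7, which guides lymphocytes and dendritic cells to lymph nodes, was at 0.13 and -1.47 in naive and -2.45 and -1.98 in resistant flasks. Its flasks did not overlap, but the naive flasks differed by 1.60, and the log2 difference of -1.54 (SE 0.56) had a limma adjusted p of 0.227. Neither of these receptors passed the test. With a naive flask left out, where the resistant flasks alone give the spread, CCR10 differed by 1.41 without flask 1 and 1.11 without flask 2, and CCR7 by -0.74 and -2.35. CCR10 was called in both of these fits and CCR7 in the latter.

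CCR1, a receptor of CCL5 and CCL23 on monocytes and neutrophils, was at -0.35 and 0.90 in naive and 0.27 and 0.75 in resistant flasks. Its other tested probe gave a difference of -0.33 beside 0.24 for this one, and neither passed the test. CCR2, the receptor of CCL2, was at -1.0 and -2.31 in naive and -1.64 and -1.87 in resistant flasks, within the naive range. CXCR5, the receptor of CXCL13 on B cells, and XCR1, the receptor of the XC ligands, had differences of 0.05 and -0.12. CCR3, the eotaxin receptor, had a difference of 0.10 by its brighter probe. Its second probe was well above background on the resistant arrays alone and was at least 2.24-fold higher there. The limma adjusted p of 0.063 belongs to the fitted values of that probe and not to this limit. The difference between the probes of CCR3 was not tested either.

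**Figure D2:**
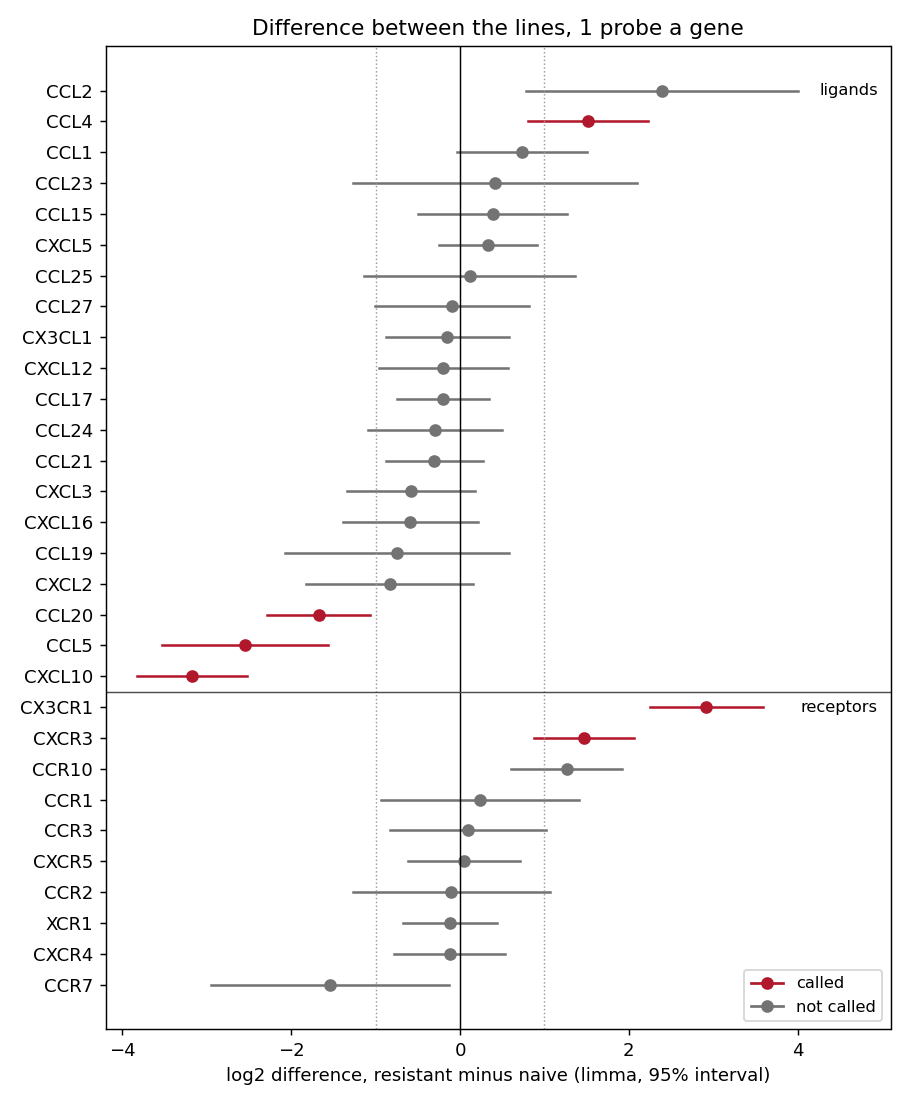
Log2 difference, resistant minus naive, of each gene tested and reported, with its 95% interval from limma, ligands above and receptors below the line. Dotted lines mark a 2-fold change, and genes called are in red. The point of CXCL10 is a fitted value against arrays that did not detect it, for which only the bound of 2.03-fold is given. The 6 called genes are 3 on each side of 0, and CCL2 and CCR7 have wide intervals.

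The size of a difference did not decide the call alone. The difference between the lines exceeded the gap between the naive flasks for 17 of 31 genes. This count was not set beside all gene names, so nothing is read from it. For the 6 called genes the difference exceeded the gap within each line. The test selects for this, since it sets the difference against the spread within lines. Among the genes not called, CCL2 lay a little above its naive gap and CCR7 a little below, while CCR10 (1.26 against 0.30) and CCL1 (0.73 against 0.18) lay well above theirs. The resistant flasks of CCL1, however, were 0.68 apart, close to its difference between the lines, and those of CCR10 were 0.37 apart.

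**Figure D3:**
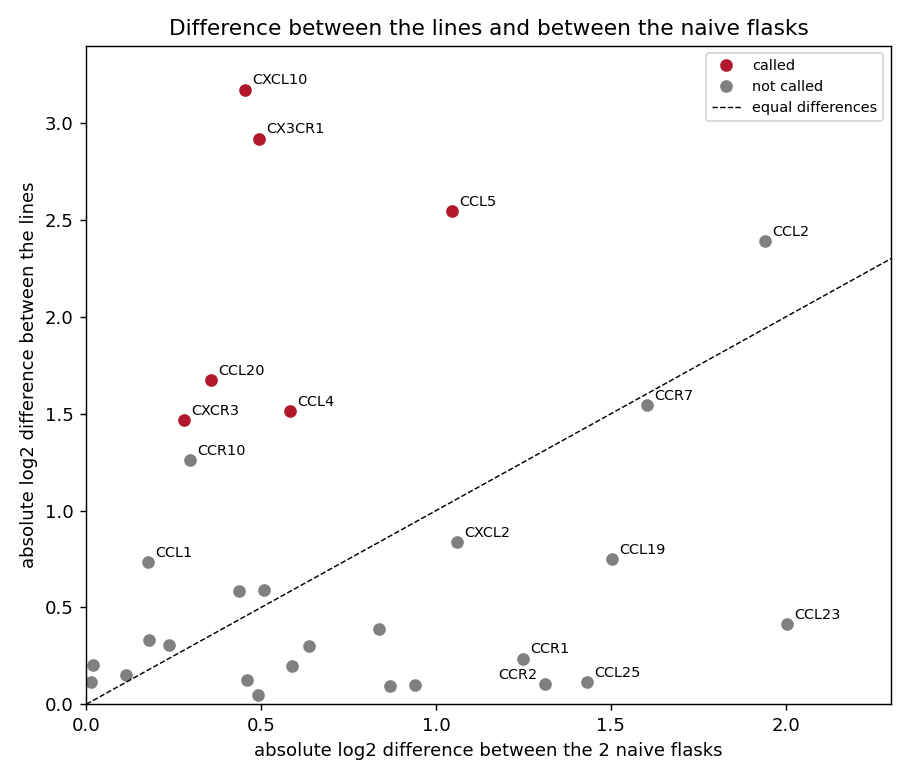
Absolute log2 difference between the means of the lines (vertical axis) against that between the 2 naive flasks (horizontal axis), with 1 point per gene tested and reported. The dashed line marks equal differences. The called genes, in red, lie well above it, while CCL23, CCL19, CCL25, CCR1 and CCR2 lie far below.

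Ligands and receptors were then set side by side. Of 36 known ligand and receptor pairs listed, 34 had both genes on the array. Both were above background in the naive line for 16 pairs and in the resistant line for 15. The pair seen in the naive line alone was CXCL10 with CXCR3. A gene counted here when any of its probes was above background on both arrays of the line. For CXCL12 and CX3CL1 this rests on the reported probe, since no other probe of theirs was so on both arrays of a line. Pairs seen in both lines included CXCL12 with CXCR4, CCL2 with CCR2 and CX3CL1 with CX3CR1. These are transcript levels in 1 culture, and protein was not measured on the arrays.

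By position, 16 of the 56 genes lay on chromosome 17, where 9 were tested and CCL4 rose and CCL5 fell. On chromosome 3, which carries many CC receptors, 10 genes lay and 6 were tested, with CX3CR1 called higher. On chromosome 4 there were 9 genes, all CXC ligands, of which 4 were tested and CXCL10 was called lower. The called genes were thus spread over chromosomes 2, 3, 4, 17 and X.

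The 250 bases before the transcription start were searched for the NF-kappa-B consensus on both strands, in promoter windows of RefSeq on GRCh38.p14. The consensus has 10 letters, some of them ambiguous, and was present in 5.21% of 35116 windows. Of the member genes, 40 had a window and 10 held a match in at least 1 window. These were CCL20, CCL22, CCR3, CXCL1, CXCL2, CXCL3, CXCL5, CXCL6, CXCL10 and CXCL11. Of the 21 tested genes with a window 6 held a match, and of the 19 genes not tested 4 did. Among called genes CXCL10 and CCL20 held a match and CX3CR1 and CXCR3 did not, while CXCL2, CXCL3, CXCL5 and CCR3 held a match and were not called. The windows of CXCL10 and CCL20 are shown as those of called genes with a match, and that of CXCL3 as the window of a gene whose probes differed in their call, each with the matches in capitals. A match is a run of letters and says nothing on whether the factor was bound.
CXCL10, chr4:76023498-76023747, minus strand, GRCh38.p14: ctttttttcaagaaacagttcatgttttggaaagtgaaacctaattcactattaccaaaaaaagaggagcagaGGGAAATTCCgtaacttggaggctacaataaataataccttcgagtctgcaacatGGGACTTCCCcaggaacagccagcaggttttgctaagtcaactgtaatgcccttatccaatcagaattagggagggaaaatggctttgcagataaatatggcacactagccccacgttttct
CCL20, chr2:227813592-227813841, plus strand, GRCh38.p14: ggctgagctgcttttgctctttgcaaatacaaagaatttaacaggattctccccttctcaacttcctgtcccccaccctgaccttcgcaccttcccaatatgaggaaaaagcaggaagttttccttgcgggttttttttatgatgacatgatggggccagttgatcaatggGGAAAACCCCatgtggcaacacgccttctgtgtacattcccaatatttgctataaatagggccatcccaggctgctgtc
CXCL3, chr4:74038690-74038939, minus strand, GRCh38.p14: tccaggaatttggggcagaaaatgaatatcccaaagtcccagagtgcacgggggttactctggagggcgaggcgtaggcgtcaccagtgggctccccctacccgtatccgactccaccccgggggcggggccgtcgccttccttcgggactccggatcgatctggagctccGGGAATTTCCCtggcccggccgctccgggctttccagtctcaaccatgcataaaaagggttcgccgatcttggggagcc
Counted from the start of transcription, the matches began at -177 and -122 in CXCL10 and at -79 in CCL20. In CXCL3 matches on opposite strands overlapped, beginning at -79 and -78.

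Family members that the array names otherwise were read from a separate list, of which 9 genes were tested and 2 were called, both higher, beside 2.49% of all gene names. One of these, RARRES2, was detected in the resistant line alone, so that the count carries no weight. IL8RB, the array's name for CXCR2, is the receptor through which neutrophils respond to CXCL8 and related ligands. It was at -4.65 and -4.79 in the naive flasks and at -1.91 and -2.06 in the resistant flasks. The lines were far apart beside the gap within either line, with a log2 difference of 2.73 (SE 0.22, limma adjusted p = 0.0036), 6.66-fold higher in the resistant line. Its second probe was not well above background on the naive arrays and entered the test only through the resistant arrays, where it was at least 1.69-fold higher. After normexp with the offset of 50 the first probe differed by 1.34 and was not called, and with bright local backgrounds reset it differed by 1.63 and was called.

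RARRES2 encodes chemerin, a chemoattractant outside the chemokine family that acts through CMKLR1. It was at -8.43 and -8.40 in the naive flasks, not well above background, and at -3.95 and -3.58 in the resistant flasks. It was at least 5.63-fold higher there, though it entered the test only through the resistant arrays, where it was high. The limma adjusted p of 0.0012 belongs to the fitted values and not to this limit. After normexp with the offset of 50 the log2 difference of RARRES2 was 0.97 and it was not called. Its receptor CMKLR1 was at -6.08 and -3.62 in naive and -6.11 and -5.70 in resistant flasks and was not called. IL8 (CXCL8), the main ligand of CXCR1 and CXCR2, was at -2.98 and -2.91 in naive and -3.03 and -3.55 in resistant flasks, a difference of -0.35 (limma adjusted p = 0.538). IL8RA, the array's name for CXCR1, was not well above background on any array.

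The genes that carry, end or modify the chemokine signal were read from 3 further lists. Over 34 tested G proteins, kinases and phospholipases downstream of the receptors the median difference was -0.19. Of 15 tested genes that end signalling, among them receptor kinases, arrestins and RGS proteins, 0 were called by limma, and their median difference was -0.86. At an unadjusted p below 0.05 limma gave 10 of these genes, beside 19.5% of all gene names, and 9 of them lower, beside 9.68%. The methods' t-test at that threshold with a 2-fold limit gave 1, beside 6.52% of all probes. The second probe of ADRBK2, a receptor kinase now named GRK3, was called higher although the gene's brighter probe was not. In this list 13 of the 15 genes had no overlap between the lines, beside 53.3% of all gene names. RGS2, which speeds the inactivation of G proteins, was at -0.05 and -0.09 in naive and -0.94 and -1.02 in resistant flasks, with a limma adjusted p of 0.10, and ARRB1, encoding beta-arrestin 1, was at 0.15 and -0.29 and at -1.07 and -1.11 (limma adjusted p = 0.11).

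Of 13 tested genes for proteases and glycans that act on chemokines, 1 was called higher, beside 2.49% of all gene names, and 1 lower, beside 2.98%. MMP9, a gelatinase that trims several CXC chemokines, was at 5.43 and 5.39 in naive and 3.31 and 3.49 in resistant flasks, a log2 difference of -2.01 (limma adjusted p = 0.0090). With a resistant flask left out the adjusted p was 0.110 without flask 1 and 0.079 without flask 2. ELANE, the neutrophil elastase of primary granules, was at -5.74 and -6.56 in naive and at -3.66 in each resistant flask, a difference of 2.49 (limma adjusted p = 0.017). It was well above background on 1 of the naive arrays and entered the test through the resistant arrays, and with either resistant flask left out the adjusted p was 0.077. Over these lists together 5 of 71 genes tested (7.04%) were called, beside 5.47% of all gene names, and RARRES2 and ELANE among them passed the filter only through the line where they were high, so that nothing is read from this count.

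Several of these ligands and receptors are also known from T cells and monocytes, so markers of both were read beside them. Of 4 T cell markers on the array, 4 were detected in both naive flasks and 2 in both resistant flasks. CD3D, whose probe was the brightest of this list, was at 0.70 and 1.16 in naive and -7.61 and -7.11 in resistant flasks, where it was not well above background. CD3D and CD3G were both called lower, beside 2.98% of all gene names, but entered the test only through the naive arrays, where they were high, while CD3E and CD2 were not called, with log2 differences of -0.01 and 1.02. Summed over the probes on a linear scale, in units of the 75th percentile and without regard to how brightly each probe hybridizes, the list was at 1.73 and 2.36 in naive and 0.112 and 0.146 in resistant flasks. In the naive flasks this sum was mostly CD3D, and in the resistant flasks mostly CD3E and CD2. CCL5 moved in its direction and CXCR3 in the opposite one, as did CD2. Of 4 monocyte and macrophage markers on the array 3 were tested and 0 were called by limma. At an unadjusted p below 0.05 limma gave 2, beside 19.5% of all gene names. The methods' t-test with the 2-fold limit gave 1, beside 6.52% of all probes. The list had a summed level of 3.07 and 3.60 in naive and 6.65 and 7.65 in resistant flasks. This sum was mostly CSF1R (log2 difference 1.23), and CX3CR1 was higher in the resistant line as well, while the difference of CD14 was -0.50. In bulk RNA a smaller share of cells that express a gene and less RNA per cell cannot be told apart, and the part of other cell types in these results was not tested.

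**Figure D4:**
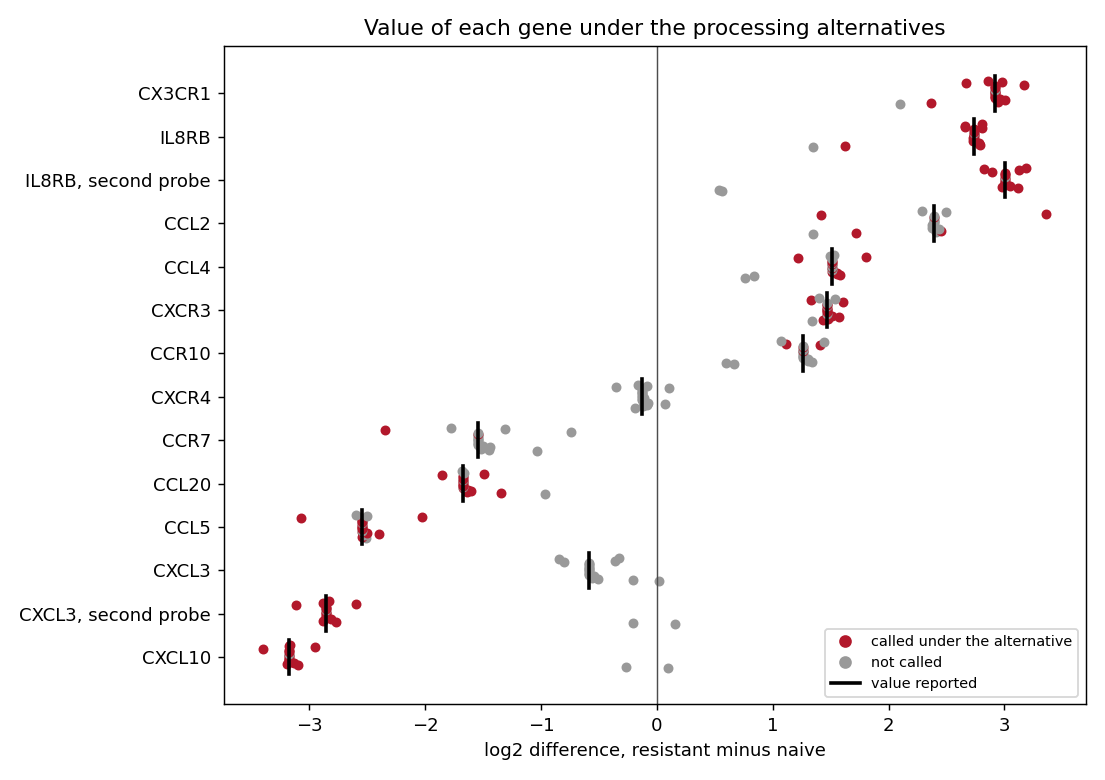
Log2 difference, resistant minus naive, of selected genes under each alternative setting, with a black bar at the value reported. Red points were called under that setting and grey points were not. CX3CR1 and IL8RB stay above 0 throughout, while CXCL10 and the second probe of CXCL3 come close to 0 under the normexp settings.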

How the data were processed

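RNA of 2 independent flasks per line was measured on 4 one-color Agilent 4x44k arrays, and the groups are those of the sample titles. The deposited scanner files come from Feature Extraction 10.5.1.1, run by the authors. Their processed signal is a linear intensity after background subtraction, with a surrogate value for dim spots, so that differences at the lowest levels are compressed. The mean and local background intensities and the flags for spots above background are further columns the authors deposited. A table of log2 values was deposited as well, made by the authors in GeneSpring with a percentile shift. Probe positions are in hg19, per the file headers.

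In R 4.3.3 the log2 of the processed signal was taken, control and outlier spots were left out, repeated spots were averaged, and each array's 75th percentile was subtracted. The result correlated with the deposited log2 table at r of at least 0.9998 on each array. The comparison of the lines used limma 3.58.1 (lmFit and eBayes), two-sided, with Benjamini-Hochberg adjustment over 28221 probes, after testing the script on simulated data. With 2 flasks per line an exact permutation test of 1 probe cannot go below p = 0.333, so the calls rest on the variance that limma pools over probes. Arrays have no read depth, and their number limits the precision. Fold limits for undetected probes used the dimmest detected signal of each array or, where higher, the probe itself.

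Genes named were all members called, all well above background on the 4 arrays or on both arrays of 1 line alone, CXCR4, the called genes of the other lists, and IL8, IL8RA and IL8RB. Others named by their values (CCL15, CXCL11, CMKLR1, RGS2, ARRB1, ADRBK2, the undetected members and the cell type markers) were chosen after seeing the data. The members and lists were chosen with earlier results of these data known. Current symbols came from a RefSeq table by accession for 72 of 74 probes. One member, 1 gene of the other lists and 1 cell type marker are counted but not reported here. Promoters of CCL2, CCL4, CCL5, CCR7 and CCR10 were not analysed here. The alternatives were 2 forms of normexp background correction, quantile and scale normalization, a median shift, the deposited log2 table, other filters on dim, outlier or saturated probes, a limma intensity trend, the methods' t-test, other thresholds, the mean over probes of a gene, the replicate number as a block, and each flask left out. Both forms of normexp used an offset of 50, and 1 of them reset bright local backgrounds, in 30 spots.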

Additional observations from a re-analysis of the deposited data

How the results depend on the processing

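Without an alternative, 7 member probes, 6 member genes and 5 genes of the other lists were called, beside 5.27% of all probes. Normexp with an offset of 50 and the methods' t-test with Benjamini-Hochberg adjustment each gave 0 of all 3. At an unadjusted p below 0.05 they gave 4 and 9 member probes, and limma gave 13, beside 19.1% of all probes. That share was not taken under normexp or the t-test, so nothing is read from their counts. With no filter on dim probes 3 probes and 2 genes were called, beside 2.45% of all probes. When detection on all 4 arrays was required there were 4 probes and 2 genes of the other lists, beside 2.93% of all probes. With a 2-fold limit and no test there were 11 probes and 17 such genes (12.3% of all probes). Scale normalization gave 9 such genes, beside 6.9% of all probes. With 1 flask left out, probes ranged from 3 to 14, member genes from 2 to 11, genes of the other lists from 2 to 19, and the median from -0.21 to -0.10, while 2.59% to 16.1% of all probes were called. The lowest counts came with either of the resistant flasks left out. The highest counts of members and of genes of the other lists came without naive flask 1, and the highest share of all probes without naive flask 2. The median of -0.12 moved to 0.17 under normexp, where that over all probes was 0.13. 

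Under normexp the sign turned for CCL17 (0.25), CCL19 (0.045), CCL21 (0.12), CCL27 (0.26), CCR2 (0.13), CX3CL1 (0.28), CXCL10 (0.095), CXCL12 (0.25), CXCL16 (0.12), CXCL3 (0.015 and, by its second probe, 0.16) and XCR1 (0.16). With bright local backgrounds reset it turned for CCL27 (0.042), CX3CL1 (0.0085) and XCR1 (0.017), and CXCL10 was -0.26 and not called. Under that setting 5 member genes were called, beside 4.21% of all probes. CXCR4 was 0.066 after scale normalization. With 1 flask left out the value reached both signs for CCL19 (-1.50 to 0.0041), CCL23 (-0.59 to 1.42), CCL24 (-0.62 to 0.018), CCL25 (-0.60 to 0.83), CCL27 (-0.57 to 0.37), CCR1 (-0.39 to 0.86), CCR2 (-0.76 to 0.55), CCR3 (-0.34 to 0.53), CX3CL1 (-0.46 to 0.16), CXCL12 (-0.49 to 0.097), CXCR4 (-0.35 to 0.11) and CXCR5 (-0.20 to 0.29). The cause was not tested.

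Same-numbered flasks share only a number (r of their deviations 0.119 over 28054 probes, 2 pairs). With the replicate number as a block 5 member probes and 4 genes were called, beside 4.87% of all probes. CCL4 (limma adjusted p = 0.062) and CXCR3 (0.056) were not called. A block for the slide was not run, since all arrays lay on 1 slide.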
